A study of Marchantia polymorpha with 9 samples.

Results

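The Y chromosome of the liverwort Marchantia polymorpha was examined through its transcripts in the thallus, the flat plant body that grows before any sex organ forms. Its genes were taken as all gene IDs in the deposited count table that start with MapolyY_, which gave 113 of 19287 IDs, 63 in a series named MapolyY_A and 50 in a series named MapolyY_B. The choice used the names alone, and IDs with no count were kept. The files do not pair these IDs with gene names, positions, lengths or functions, so every ID is described by its name and its counts, and no role is given to any of them.

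Liverworts spend most of their life as haploid plants, and sex is set in the haploid plant by the chromosome it carries, an X (also called U) in females and a Y (also called V) in males. The Marchantia Y is known for repeated sequences and gene families, for genes that act in the male sex organs and motile sperm, and for a smaller group of genes that have a counterpart on the X. In the vegetative thallus only some of its genes are known to be used.

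Whole thalli of 10-day-old male plants of the Cambridge strain, grown from gemmae on agar, were sequenced as 3 libraries each of the genotypes labelled OX, KO and WT. These are read here as overexpression, knockout and wild type; the labels name neither the gene nor the promoter or the alleles, and the study's title refers to a MYB transcription factor lineage related to MIXTA. The design speaks of 3 biological replicates for each line, which leaves 1 line per genotype, so a difference between genotypes cannot be told apart from a difference between lines. No source used here ties the MYB gene to an ID, and the level of the altered gene was not checked against the labels. In such whole-plant samples, fewer cells of a type and less RNA per cell cannot be told apart.

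Library depth was 22401499 to 28848372 read pairs, and WT replicate 2 was the shallowest library. Every value in the table was even, and 1 read pair is taken as 2 counts; levels below are given in pairs or in CPM, counts scaled to equal library size and by TMM factors of 0.958 to 1.04. A limit of 3 pairs in a library, which a count of 0 allows, corresponds to 0.104 to 0.134 CPM. Because gene lengths are not in the file, levels of different IDs are not compared as transcript levels. Markers of the thallus could not be checked without gene names, but all 9 libraries, labelled male, held counts of Y IDs.

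Most Y IDs were silent or nearly so in the thallus. No pair was counted in any of the 9 libraries for 41 of the 113 IDs (36.3%), against 719 of the 19174 other IDs (3.75%). A further 38 IDs (33.6%) had traces of counts that did not pass the filter on low counts, against 19.2% of other IDs. The remaining 34 IDs (30.1%) passed the filter and were tested, against 77.1% of other IDs. Both series held all 3 levels: 25 of 63 A IDs and 16 of 50 B IDs had no count, and 15 A IDs and 19 B IDs were tested.

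No numbered scaffold of comparable size had such levels. The table holds 127 numbered scaffolds with at least 50 IDs, and the share of IDs without any count on them was 0% to 7.69%, with a median of 1.85%. The A series stood at 39.7% and the B series at 32.0%. The share of IDs tested was 60.4% to 93.0% on these scaffolds, and 23.8% in the A series and 38.0% in the B series. All 127 scaffolds thus lay on the same side of both Y series in both measures. Near-identical copies can lose reads in counting, and the copy number of the Y IDs was not tested.

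**Figure D1:**
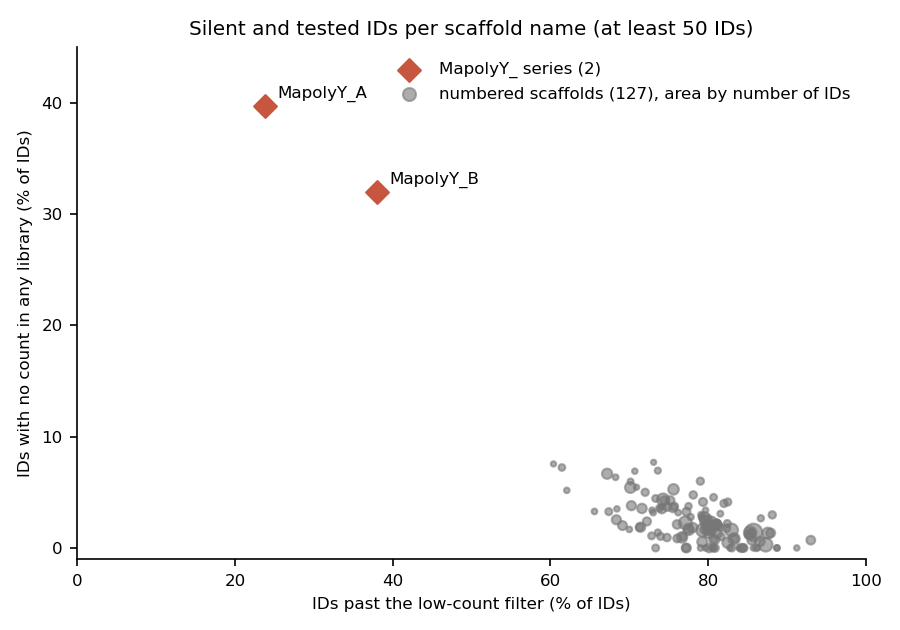
Percent of IDs with no count in any library (vertical axis) against percent of IDs past the low-count filter (horizontal axis), for the 2 Y series (diamonds) and the 127 numbered scaffolds with at least 50 IDs (circles, area by number of IDs). The circles lie at 60.4% or more tested and 7.69% or less silent, and the Y series at 23.8% and 38.0% tested.

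Averaged over the 9 libraries, 70 IDs had under 1 pair per library, counting those with none (61.9%, against 14.6% of other IDs). At 100 pairs or more there were 24 IDs (21.2%, against 57.3% of other IDs). The 19 IDs in between make up 16.8% of the Y IDs, against 28.1% of other IDs with 1 to under 100 pairs. These are shares of all IDs, so the large class under 1 pair lowers the other Y shares, and they do not show a gap at middle levels. In the A series no ID fell between 100 and 1000 pairs, 10 lay at 1000 or more, and the other tested A IDs lay under 100. In the B series 10 IDs had 100 to under 1000 pairs and 4 had 1000 or more.

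The tested IDs held 99.9% of all pairs counted on the Y, 422415 pairs, and the trace IDs together held 219. The 5 IDs with the highest mean CPM, MapolyY_A0025, MapolyY_A0041, MapolyY_B0007, MapolyY_A0024 and MapolyY_B0001, held 50.3% of the Y pairs. MapolyY_A0025 alone averaged 244 CPM over the 9 libraries and held 14.4%. A longer transcript gives more counts, so this is an order of counts.

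At the filter's edge, MapolyY_A0029 was the lowest tested ID, with 41 pairs in all and counts in 9 of 9 libraries. MapolyY_A0023 was the highest ID left out, with 27 pairs in 8 libraries. Of the 38 trace IDs, 14 had 1 pair in a single library, 21 had at most 3 pairs in all, and 1, MapolyY_B0012, had pairs in every library (1 to 4). No trace ID had more than 8 pairs in a library.

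In order of IDs, the tested members came in short runs of neighbouring numbers. In the A series these were MapolyY_A0004, MapolyY_A0006 and MapolyY_A0007, MapolyY_A0024 and MapolyY_A0025, MapolyY_A0029 and MapolyY_A0030, MapolyY_A0032, MapolyY_A0040 and MapolyY_A0041, MapolyY_A0044 to MapolyY_A0046, and MapolyY_A0055 and MapolyY_A0056. The longest stretch of A IDs that did not pass the filter ran over 16 IDs from MapolyY_A0008 to MapolyY_A0023, and the last 7 IDs, MapolyY_A0057 to MapolyY_A0063, also failed it. The longest run without any pair was 4 IDs, MapolyY_A0060 to MapolyY_A0063. Silent and trace IDs were mixed elsewhere, and 8 of the 15 silent runs of the A series were 1 ID long.

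The B series was used mainly in its first 28 numbers. It had 3 runs of 5 tested IDs, MapolyY_B0005 to MapolyY_B0009, MapolyY_B0017 to MapolyY_B0021 and MapolyY_B0024 to MapolyY_B0028, besides MapolyY_B0001. By blocks of 10 numbers, 6, 4 and 6 IDs were tested in the first 3 blocks, and 1 and 2 in the last 2, where the tested IDs were MapolyY_B0032, MapolyY_B0044 and MapolyY_B0048. A stretch of 11 IDs, MapolyY_B0033 to MapolyY_B0043, did not pass the filter, and its longest run without any pair was the 3 IDs MapolyY_B0036 to MapolyY_B0038.

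On the numbered scaffolds the longest run of tested IDs was 7 to 57 IDs, above the 3 of the A series and the 5 of the B series on every scaffold. The longest run of silent IDs was 0 to 5 IDs on the scaffolds, with a median of 1. Of the 127 scaffolds, 2 had a run of at least the 4 of the A series. A run of at least the 3 of the B series occurred on 5. Both Y series thus lay near the top of the range but within it. The 2 scaffolds with a run of at least 4 were larger, Mapoly0001 with 575 IDs and Mapoly0016 with 209. The longest stretch of IDs that did not pass the filter was 1 to 15 IDs on the scaffolds, under the 16 of the A series on all of them, while 2 scaffolds reached at least the 11 of the B series. The length of a run depends on the share of IDs in its class, and a lower share tested goes with shorter tested runs and longer untested ones. Whether the Y runs differ from what these shares alone give was not tested. These runs follow the order of names, and physical distance was not analysed here.

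**Figure D2:**
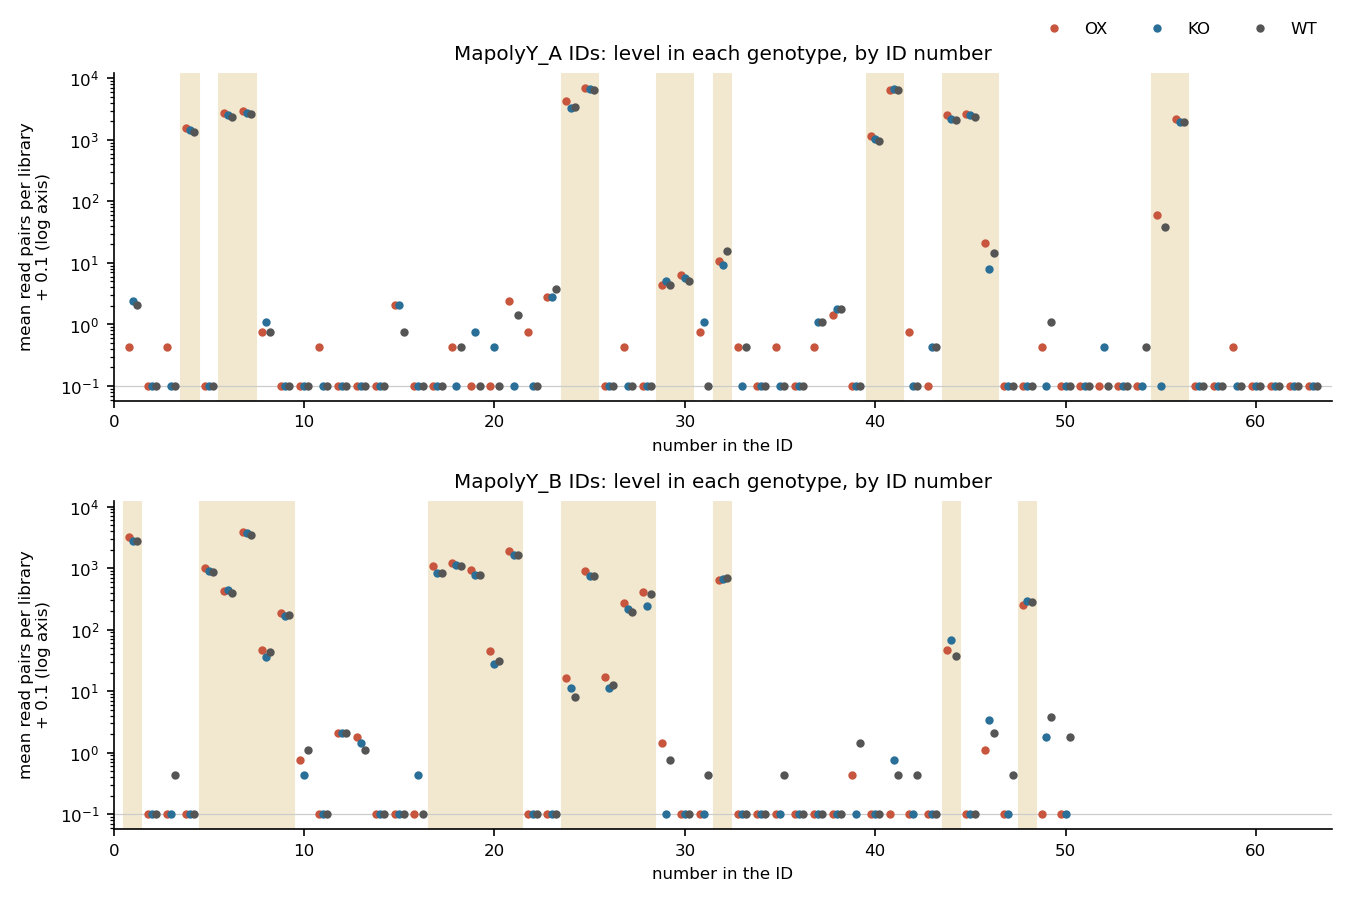
Mean read pairs per library plus 0.1 (log axis) of each Y ID in OX (red), KO (blue) and WT (grey), in order of ID number, for the A series (top) and the B series (bottom); shaded IDs passed the low-count filter. The shaded IDs stand in short runs, the 3 genotypes nearly coincide at most of them, and MapolyY_A0055 has no pair in KO.

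Nearly all tested Y IDs had counts in every genotype, while most trace IDs were not seen in all of them. The split into tested and trace IDs was itself made by counts, so this contrast follows largely from the filter. The trace IDs had a median of 2 pairs over the 9 libraries together. All 34 tested IDs had counts in OX and in WT, and 33 had counts in KO. Of the 38 trace IDs, 24 had a pair in OX, 18 in KO and 26 in WT, with 64, 69 and 86 pairs in all. A pair was seen in all 3 genotypes for 10 of them, in 2 genotypes for 10 and in 1 for 18. A trace ID with counts in at least 2 libraries of one genotype and none in another occurred 11 times. The same counts over the 3676 other trace IDs of the table are not given here, so these numbers are not read as a trait of the Y. The 3 Y IDs of this kind with the most counts were MapolyY_B0049, MapolyY_A0021 and MapolyY_B0029.

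MapolyY_B0049 had 0 pairs in each OX library, 1, 0 and 4 in KO replicates 1 to 3, and 4, 2 and 5 in WT replicates 1 to 3. MapolyY_A0021 had 2, 2 and 3 pairs in OX, 0 in each KO library, and 1, 1 and 2 in WT. MapolyY_B0029 had 0, 2 and 2 pairs in OX, 0 in each KO library, and 2, 0 and 0 in WT. These counts are at or near the limit of 3 pairs that a count of 0 allows, and none of the 3 IDs passed the filter. Against a limit of 3 pairs over the 3 OX libraries, MapolyY_B0049 was 4.0-fold lower in OX than in WT. That value takes its 11 WT pairs as exact, so with so few pairs it is not a firm minimum.

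Summed over all 113 IDs, the Y took 0.178% to 0.181% of the counts of the OX libraries, 0.156% to 0.163% of the KO libraries and 0.164% to 0.170% of the WT libraries. The means were 0.179% ± 0.00175 in OX, 0.161% ± 0.00427 in KO and 0.167% ± 0.00331 in WT (SD, n = 3 each). The libraries of the 3 genotypes did not overlap. The 95% Wilson interval of a library, which covers counting error only, reached at most 0.00167 percentage points to either side, and the highest KO library lay closer than that to the lowest WT library, at 0.163% in KO and 0.164% in WT. After TMM scaling the sums were 1724 to 1757 CPM in OX, 1625 to 1655 CPM in KO and 1659 to 1692 CPM in WT, so the differences between genotypes were smaller once the libraries were scaled. No test is given for a sum over chosen members.

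**Figure D3:**
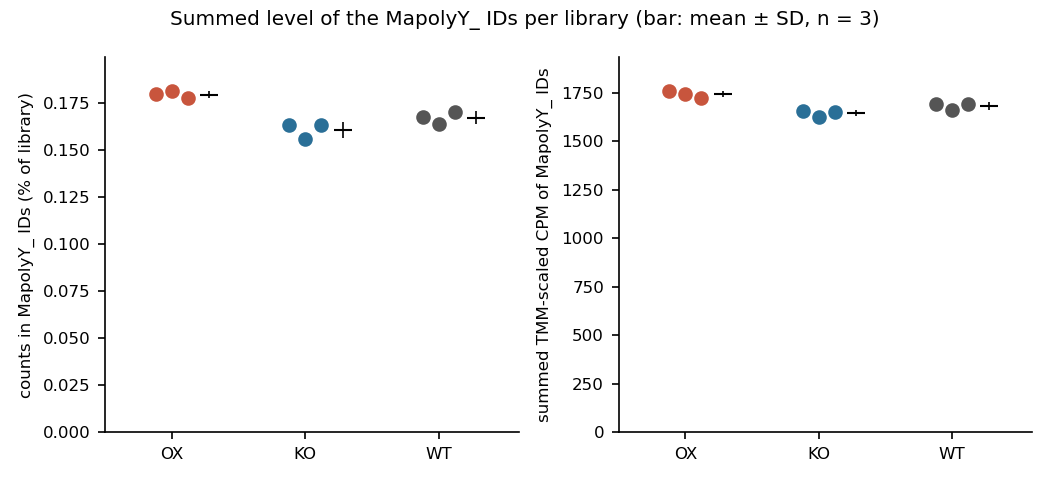
Percent of each library's counts in the Y IDs (left) and their summed TMM-scaled CPM (right), with 1 point per library for OX, KO and WT and the mean ± SD beside the points. OX lies highest and KO lowest on both scales, by less after TMM scaling.

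Members with many counts were steady between libraries of a line. For the 24 IDs with at least 100 pairs a library, the median coefficient of variation between replicates was 3.18% in OX, 3.57% in KO and 5.07% in WT. Over all 11017 tested genes with that many pairs it was 4.76%, 5.05% and 5.74%. The other 10 tested IDs varied more, with medians of 27.4% in OX, 24.2% in KO (9 IDs with counts there) and 35.5% in WT. MapolyY_A0032, for example, had 10, 9 and 13 pairs in OX, 12, 8 and 8 in KO, and 13, 24 and 9 in WT, where WT replicate 2 stands apart.

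Tests of single IDs used edgeR's quasi-likelihood F test on all genes of the table, fitted to the 14813 genes that passed the filter, with Benjamini-Hochberg adjusted p-values and a threshold of 0.05. In the joint test of all 3 genotypes, 10 of the 34 tested Y IDs differed, or 29.4%, against 36.8% of all genes tested. That count was 6 without OX replicate 3 and 15 without WT replicate 3.

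In OX against WT, 6 of the 34 IDs differed, 4 higher and 2 lower, which is 17.6%, against 24.8% of all genes tested. The 4 that rose were 11.8% of those tested, against 10.5% of all genes, and the 2 that fell were 5.88%, against 14.3%. No tested Y ID was called with a change of at least 2-fold, against 6.21% of all genes tested. A single such call appeared without WT replicate 2, for MapolyY_B0024, and 1 with no filter on low counts, for MapolyY_B0049. At an unadjusted p under 0.05 there were 12 Y IDs, against 36.4% of all genes. MapolyY_A0024 had 147, 154 and 146 CPM in OX, against 121, 126 and 139 CPM in WT (log2 fold change 0.21 ± 0.053 SE, adjusted p = 0.0147). All OX libraries lay above all WT libraries for this ID.

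MapolyY_A0044 had 88.4, 86.5 and 89.5 CPM in OX and 76.7, 81.2 and 80.6 CPM in WT (log2 fold change 0.15 ± 0.039, adjusted p = 0.0202). MapolyY_A0040 had 43.0, 39.9 and 39.1 CPM in OX and 36.0, 34.4 and 36.8 CPM in WT (log2 fold change 0.18 ± 0.057, adjusted p = 0.0382). For neither ID did the OX and WT libraries overlap. MapolyY_B0017, at 34.4, 37.2 and 39.1 CPM in OX and 30.9, 29.8 and 32.9 CPM in WT, was the fourth ID that rose (log2 fold change 0.24, adjusted p = 0.0129).

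The falls were also under 2-fold. MapolyY_A0041, which follows MapolyY_A0040 in the numbering, went the other way, with 220, 219 and 222 CPM in OX and 246, 260 and 237 CPM in WT (log2 fold change -0.17 ± 0.045, adjusted p = 0.0206). MapolyY_B0048 had 8.86, 8.31 and 8.50 CPM in OX and 11.1, 9.87 and 10.7 CPM in WT (log2 fold change -0.31 ± 0.081 SE, adjusted p = 0.0199). When libraries were scaled by their size only, neither fall passed the test, and edgeR called 9 IDs higher and 0 lower. Over all genes that scaling called 2350 higher and 1757 lower, against 1554 and 2113 under TMM scaling. Under TMM scaling 3 IDs were lower at an unadjusted p under 0.05. DESeq2 called 3 lower and limma-voom 2, against 2309 and 2069 over all genes.

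The count of 6 changed when single libraries were left out. It was 2 without OX replicate 2, 3 without OX replicate 3 and 3 without WT replicate 1. Calls over all genes fell too, from 3667 to 2792, 2747 and 3001 in the same refits. Each of the 6 calls was lost without at least 1 library. MapolyY_B0017 lost its call without WT replicate 2 (adjusted p = 0.0539, range over its alternatives 0.00177 to 0.0539). MapolyY_A0024 lost it without OX replicate 2 or WT replicate 2 (0.0577 and 0.0574, range 0.00213 to 0.0577). MapolyY_A0044 lost it without OX replicate 3 or WT replicate 1, MapolyY_A0040 without OX replicate 1 or 2 or WT replicate 1 or 2, MapolyY_A0041 without any 1 OX library or WT replicate 2, and MapolyY_B0048 without OX replicate 2 or 3 or WT replicate 1.

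Across the 34 tested IDs, the median log2 fold change in OX against WT was 0.09, against 0.01 for all genes tested, and 27 of 34 values were above 0, or 79.4%, against 52.0% of all genes. All OX libraries lay on one side of all WT libraries in 16 of the 34 IDs, against 40.2% of all genes tested. In 13 all OX libraries lay above all WT libraries (38.2%, against 19.9% of all genes tested), and in 3 all lay below (8.82%, against 20.3%). The medians of the series were alike, 0.09 in the 15 A IDs and 0.09 in the 19 B IDs. Under library size alone the Y median was 0.14 and that of all genes 0.06.

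In KO against WT, 2 of the 34 IDs differed, which is 5.88%, against 14.1% of all genes tested. Both were lower in KO, a direction called for 7.64% of all genes. None was called higher with all libraries by edgeR without a block, DESeq2 or limma-voom, against 6.51% of all genes by edgeR, and 1 was higher at an unadjusted p under 0.05. Without WT replicate 3, 1 ID was called higher, MapolyY_B0044. A change of at least 2-fold was called for 1 Y ID (2 without WT replicate 3), against 3.18% of all genes tested.

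MapolyY_A0055 had no pair in KO. It had 73, 54 and 56 pairs in OX replicates 1 to 3, 0 pairs in each KO library, and 47, 35 and 33 pairs in WT replicates 1 to 3. KO was lower than WT (adjusted p = 3.59e-05) and lower than OX (adjusted p = 6.19e-06), and these calls held under all 19 alternatives each. Pairs in OX (183) and WT (115) were taken as counted, with a limit of 3 pairs over the 3 KO libraries. On that footing the ID was at least 59.3-fold higher in OX than in KO, and at least 40.7-fold lower in KO than in WT.

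The ID next to it in number behaved otherwise. MapolyY_A0056 had 2060, 2290 and 2279 pairs in OX, 2048, 1878 and 2042 in KO, and 2091, 1582 and 2132 in WT, and it did not pass the test in KO against WT (log2 fold change -0.05 ± 0.040, adjusted p = 0.529). On its other side, MapolyY_A0054 had 1 pair in all, in WT replicate 3. The loss in KO thus did not extend to the neighbour with counts.

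In the whole table this pattern was rare. Of 11862 genes with at least 30 pairs in every OX and every WT library, MapolyY_A0055 was the only one with no pair in KO, and it was also the only one among the 13580 genes with at least 5 pairs in each of these libraries. Allowing 1 pair over the 3 KO libraries added Mapoly0194s0002 at the minimum of 30 pairs. At the minimum of 5 pairs, 5 of 13709 genes had none in OX and 0 of 13589 had none in WT, and at the minimum of 10 pairs no gene had none in OX or none in WT. These minimums were set after the values of MapolyY_A0055 had been seen.

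MapolyY_B0028 was the other ID that fell in KO. It had 13.9, 13.4 and 14.9 CPM in OX, 9.88, 7.21 and 9.03 CPM in KO, and 15.5, 12.5 and 15.0 CPM in WT. KO was lower than WT (log2 fold change -0.72 ± 0.12, adjusted p = 0.0026), with no overlap of libraries, and OX did not differ past the threshold from WT (log2 fold change -0.03 ± 0.12, adjusted p = 0.881). Both calls of this ID held under all alternatives, with log2 fold changes of -0.82 to -0.60 in KO against WT. Its run neighbour MapolyY_B0027 had 7.83 ± 0.57 CPM in KO and 7.29 ± 1.09 CPM in WT (SD, n = 3 each) and did not pass the test (adjusted p = 0.659).

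Apart from these, no ID passed the test in KO against WT. Of the 24 IDs with at least 100 pairs a library, 23 had log2 fold changes within 0.5 of 0, against 10352 of 11017 genes with that many pairs. Wider values that did not pass the test were seen at IDs with fewer pairs. Among them were MapolyY_A0032 (log2 fold change -0.86 ± 0.45, edgeR adjusted p = 0.253) and MapolyY_B0044 (0.78 ± 0.34, adjusted p = 0.172). The median log2 fold change of the 34 IDs was -0.04, against 0.00 for all genes tested, and 22 of 34 values were below 0; MapolyY_A0055, which has no bounded fold, counts among those below and does not set the median. All KO libraries lay on one side of all WT libraries in 6 IDs, against 31.2% of all genes tested. In 5 all KO libraries lay below all WT libraries (14.7%, against 15.9% of all genes tested), and in 1, MapolyY_B0007, they lay above (2.94%, against 15.2%). MapolyY_A0046 had 10, 7 and 7 pairs in KO, against 17, 10 and 17 in WT, and did not pass the test (log2 fold change -0.94 ± 0.32, adjusted p = 0.0786).

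In OX against KO, 10 of the 34 IDs differed, 9 higher and 1 lower in OX (29.4%, against 34.7% of all genes tested). The higher IDs were 26.5% of those tested, against 15.6% of all genes, and the lower one 2.94%, against 19.1%. A change of at least 2-fold was called for MapolyY_A0046 and MapolyY_A0055, which are 5.88% of the 34, against 8.48% of all genes. At an unadjusted p under 0.05 there were 16 Y IDs, against 44.2% of all genes tested, and 2 of them were lower in OX, against 23.4% of all genes.

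Besides MapolyY_A0055 and MapolyY_B0028 (log2 fold change 0.69 ± 0.12, adjusted p = 0.00127), these included the 3 IDs MapolyY_A0024, MapolyY_A0044 and MapolyY_B0017 that were also higher in OX than in WT. This comparison shares the OX libraries with that of OX against WT, so the calls are not independent.

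MapolyY_A0046 showed the widest gap among the others, with 19, 28 and 15 pairs in OX and 10, 7 and 7 pairs in KO (log2 fold change 1.32 ± 0.31, adjusted p = 0.00783). The libraries did not overlap, and the call held in all 18 refits that tested the ID. It is the third ID of the run from MapolyY_A0044, while MapolyY_A0045 between them did not pass the test (log2 fold change 0.04 ± 0.048, adjusted p = 0.538).

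MapolyY_B0001 had 114, 112 and 112 CPM in the OX libraries, against 98.1 ± 1.66 CPM in KO (SD, n = 3), and its log2 fold change was 0.20 ± 0.045 (edgeR adjusted p = 0.00666). MapolyY_B0025 had 31.5, 30.3 and 32.9 CPM in OX, against 26.0 to 27.2 CPM in the KO libraries, a log2 fold change of 0.26 ± 0.060 (adjusted p = 0.00733). The WT libraries lay at 98.1 to 108 CPM for MapolyY_B0001 and 26.7 to 30.3 CPM for MapolyY_B0025, below all OX libraries of the same ID. Neither ID differed past the threshold from WT in either genotype as fitted here. In OX against WT, edgeR called both with library size alone (adjusted p = 0.0389 and 0.0289). It also called both with the replicate number as a block (0.0478 and 0.0128).

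MapolyY_B0021 had 63.8, 64.4 and 67.6 CPM in OX and 56.7, 59.8 and 59.9 CPM in KO. Its log2 fold change was 0.15 ± 0.045 (adjusted p = 0.0251), and its call was lost without OX replicate 3 or KO replicate 1. The ID that was lower in OX was again MapolyY_B0048, with 8.56 ± 0.28 CPM in OX and 10.4 ± 0.72 CPM in KO, a log2 fold change of -0.28 ± 0.081 (adjusted p = 0.0221). Its call was lost with library size alone and without OX replicate 2 or 3 or KO replicate 1 or 3. The other 7 of the 10 higher or lower calls, besides MapolyY_A0046, held under every alternative run.

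In OX against KO the median log2 fold change of the 34 IDs was 0.15, against 0.00 for all genes tested, and 28 values were above 0 (82.4%, against 49.6% of all genes). The libraries of OX and KO did not overlap in 20 IDs, against 49.1% of all genes tested. All OX libraries lay above all KO libraries in 18 of the 34 IDs (52.9%, against 23.8% of all genes tested) and below them in 2 (5.88%, against 25.3%). With upper-quartile factors 13 were called higher and 1 lower, and with library size alone 16 were called higher and 0 lower. Over all 14813 genes, upper-quartile factors called 2575 higher and 2660 lower. Library size alone called 3649 higher and 2171 lower, against 2318 and 2826 under TMM scaling. With upper-quartile factors and with library size alone the Y median was 0.17 and 0.23, and that of all genes 0.01 and 0.07. The rises were small in nearly every ID, and 28 of the 34 values were within 0.5 of 0 on the log2 scale.

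**Figure D4:**
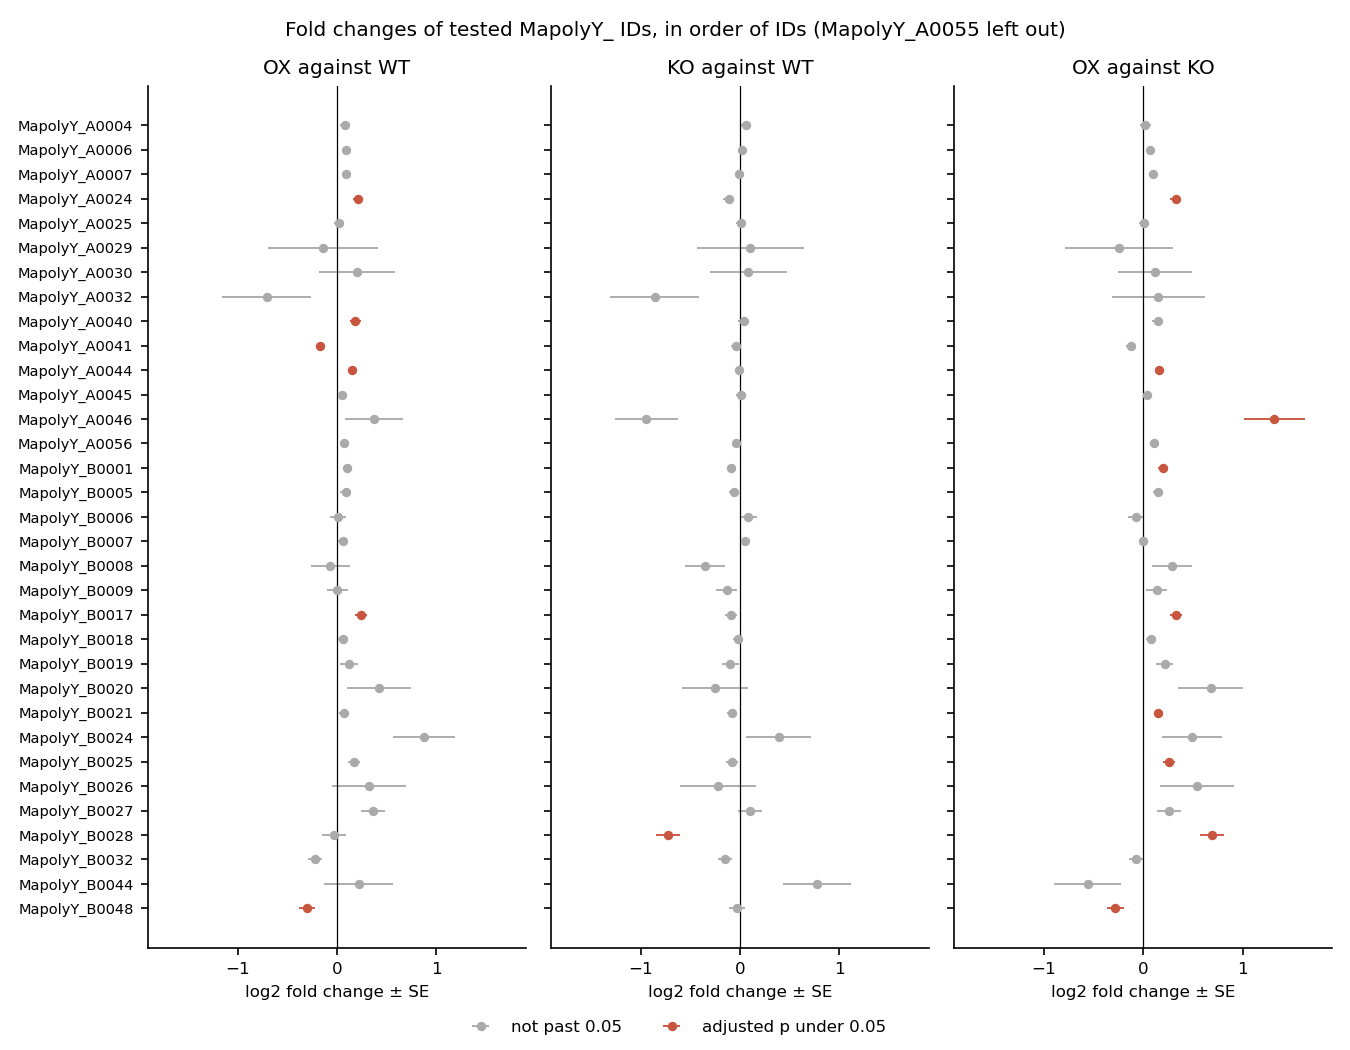
Log2 fold changes ± SE of 33 tested Y IDs, in order of IDs from top to bottom, for OX against WT, KO against WT and OX against KO; red points passed an adjusted p of 0.05. MapolyY_A0055 is left out because it had no pair in KO. Most points lie just right of 0 in OX against WT and in OX against KO, and the wide bars belong to IDs with under 100 pairs a library.

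**Figure D5:**
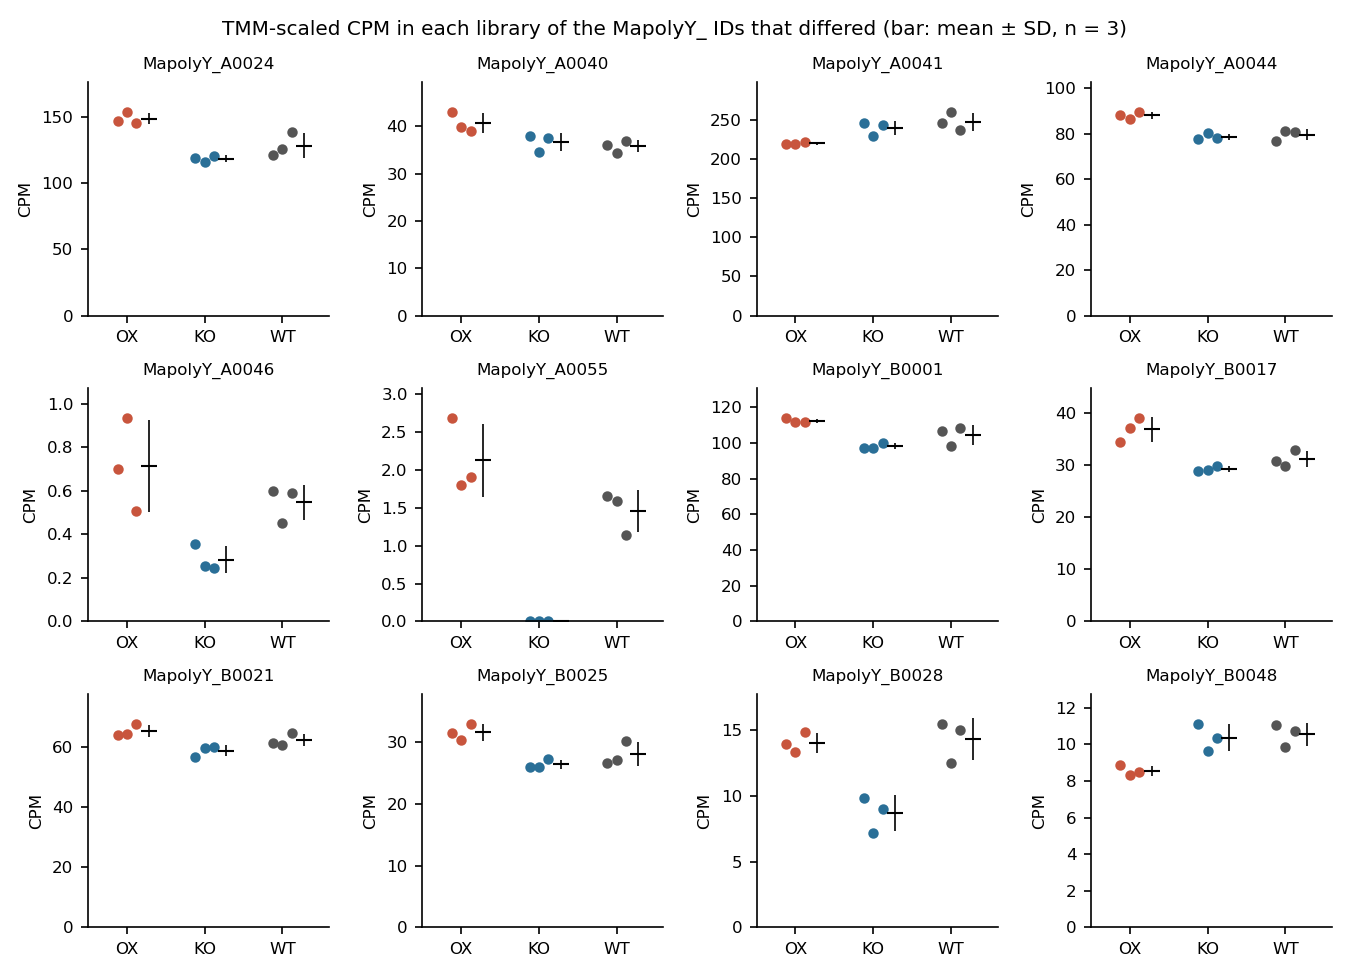
TMM-scaled CPM (vertical axes, from 0) in each library of the 12 Y IDs that differed in at least 1 pairwise comparison, with OX, KO and WT from left to right and the mean ± SD beside the points. MapolyY_A0055 is at 0 in all KO libraries, MapolyY_B0028 is low in KO alone, MapolyY_A0046 is lower in KO than in OX by 1.32 on the log2 scale, and the other 9 panels show shifts of at most 0.33 on that scale among the called comparisons.

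Among the most counted Y IDs, 2 did not differ past the threshold in any comparison. MapolyY_A0025 had 252, 250 and 234 CPM in OX, 241, 244 and 245 CPM in KO, and 257, 241 and 229 CPM in WT, and its libraries overlapped between all genotypes. MapolyY_B0007 had 135, 141 and 128 CPM in OX, 135, 136 and 132 CPM in KO, and 131, 127 and 130 CPM in WT. MapolyY_A0025 lies next to MapolyY_A0024, which was higher in OX than in either other genotype. MapolyY_B0007 lies in the middle of a run of 5 tested IDs, MapolyY_B0005 to MapolyY_B0009. None of these differed past the threshold in a pairwise comparison as fitted here. Some other settings called MapolyY_B0005 in OX against KO, such as upper-quartile factors (edgeR adjusted p = 0.0335).

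Among the remaining tested IDs, 2 lay just beyond the threshold in OX against WT. MapolyY_B0027 had 8.42, 9.68 and 10.1 CPM in OX and 7.19, 6.25 and 8.42 CPM in WT (log2 fold change 0.36 ± 0.12, adjusted p = 0.0504). MapolyY_B0032 had 23.3, 21.3 and 22.0 CPM in OX and 27.3, 24.0 and 26.2 CPM in WT (log2 fold change -0.22 ± 0.075, adjusted p = 0.0554). Neither passed the test as fitted here, although their libraries did not overlap between these genotypes. DESeq2 called both, with adjusted p = 0.023 for MapolyY_B0027 and 0.0368 for MapolyY_B0032.

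Of the tested A IDs that were not called, the first 3 in number had levels that lay close together in the 3 genotypes. MapolyY_A0006 had 93.4 to 101 CPM in OX, 89.5 to 95.5 CPM in KO and 89.0 to 91.0 CPM in WT, and its neighbour MapolyY_A0007 had 102 to 106 CPM in OX, 96.8 to 97.7 CPM in KO and 95.4 to 99.5 CPM in WT. MapolyY_A0004, the first tested ID of the series, had 52.3 to 53.7 CPM in OX, 48.7 to 54.5 CPM in KO and 48.6 to 53.1 CPM in WT. None of these 3 IDs passed the test in a pairwise comparison as fitted here. All OX libraries of MapolyY_A0007 lay above all its KO and WT libraries, and those of MapolyY_A0006 above all its WT libraries. Several other settings called MapolyY_A0007 higher in OX than in KO, among them DESeq2 (adjusted p = 0.0424), limma-voom (0.0496) and edgeR with upper-quartile factors (0.0309). Under library size alone MapolyY_A0006 and MapolyY_A0007 were higher in OX than in KO and in WT.

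The runs of the B series mixed high and low IDs. In the run from MapolyY_B0005 to MapolyY_B0009, MapolyY_B0005 averaged 931 pairs a library, MapolyY_B0006 averaged 420, MapolyY_B0007 averaged 3694, MapolyY_B0008 averaged 41.9 and MapolyY_B0009 averaged 177. In the run from MapolyY_B0017, the ID MapolyY_B0020 averaged 34.1 pairs between MapolyY_B0019 at 828 and MapolyY_B0021 at 1728. These are counts that depend on gene length, and the IDs of these runs did not share a level of counts.

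Low counts limit what could be seen at 10 tested IDs. MapolyY_B0024 had 17, 15 and 17 pairs in OX, 11, 10 and 13 in KO, and 6, 10 and 8 in WT, and its change in OX against WT did not pass the test (log2 fold change 0.88 ± 0.32, adjusted p = 0.0692). MapolyY_B0044 had 40, 38 and 63 pairs in OX, 56, 51 and 95 in KO, and 33, 20 and 60 in WT, with the third library highest in each genotype, and it did not pass the test in a comparison. Without a block, it was higher in KO than in WT when WT replicate 3 was left out (edgeR adjusted p = 0.0424). For MapolyY_A0029, at 3 to 6 pairs in OX, 2 to 8 in KO and 3 to 5 in WT, no difference was detectable at this depth.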

How the data were processed

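Raw counts per gene, 1 column for each of the 9 libraries, are the values the authors deposited. The submitters' processing notes list STAR 2.5.1b and featureCounts 1.5. How these were set, whether counting used strand, and which genome build served are not given in the sources used. Reads shared by near-identical or overlapping genes may have been split or dropped.

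Columns were matched to samples by their library names. Genes were kept by filterByExpr in edgeR 4.0.16 (R 4.3.3), scaled by TMM factors and fitted with a quasi-likelihood model of 1 mean per genotype over all 9 libraries; the test was checked on simulated data. Alternatives used DESeq2 1.42.0 and limma 3.58.1, other scalings, filters and samples. The name table, assembly MpTak2_v7.1 with 18391 rows, matched 0 IDs and was not used further. Silent means no count in any library; trace means counts below the filter.

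Members, lists and tests were chosen with earlier results of these data known. Named IDs are those called in a pairwise comparison, the 5 with the highest mean CPM, the 3 trace IDs with most counts in one genotype and none in another, and the ends of the longest silent and tested runs; other IDs named in the text (neighbours of these, IDs at the filter's edge or near the threshold, the first tested A IDs and examples with low counts) were chosen after their values were seen. P-values cover the spread between samples of 1 line.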

Additional observations from a re-analysis of the deposited data

How the results depend on the processing

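With the replicate number as a block in the model, the calls numbered 10 in OX against WT, 3 in KO against WT, 17 in OX against KO and 17 for any difference. Over all 14813 genes the block also raised the calls in these 3 comparisons, from 3667, 2096 and 5144 to 5158, 3516 and 6578. The added ID in KO against WT was MapolyY_B0044, higher in KO (log2 fold change 0.81, edgeR adjusted p = 0.00495). The labels share only the number. Deviations of each gene's log2 CPM from its genotype mean were correlated between libraries of different genotypes, not the levels themselves. Same-numbered libraries gave 0.0306 to 0.411, above 0.1 in 7 of 9 pairs, and libraries of different numbers gave -0.422 to 0.00764. Taking off the mean of so few libraries itself lowers the values for different numbers. For 9 of 9 libraries the highest correlations with the other genotypes were with libraries of the same number, a hint from the data that the design does not state. With library size alone, 16 were called for OX against KO, and calls over all genes rose from 5144 to 5820. With a minimum change of 2-fold the 3 comparisons gave 0, 1 and 2 IDs; the 0 for OX against WT was also 0 with DESeq2 and limma-voom but 1 with no filter and 1 without WT replicate 2, and 12 IDs had an unadjusted p under 0.05 at any size by edgeR. Calling an ID detected only at 3 pairs or more in a library left 69 IDs never detected, in place of 41. The Y share of counts was 0.154% in OX, 0.137% in KO and 0.143% in WT without MapolyY_A0025, and 0.192%, 0.173% and 0.180% of the counts outside the 10 most abundant genes; both moves follow from the construction. The other causes were not tested.

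Refits that each dropped a single library called 2 to 8 IDs in OX against WT and 2 to 3 in KO against WT. They called 8 to 14 in OX against KO and 6 to 15 for any difference. Over all genes the same refits called 2680 to 3667 in OX against WT and 1293 to 2076 in KO against WT. In OX against KO they called 4063 to 5332. They gave 41 to 44 IDs with no count, 34 to 35 with counts in every library and 34 past the filter each time, and Y shares of 0.178% to 0.180% in OX, 0.159% to 0.163% in KO and 0.166% to 0.169% in WT. Of 341 refitted fold changes of the 18 calls, 316 stayed past the threshold, 25 did not and 0 reversed.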
